A study of Homo sapiens with 18 samples.

Results

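The comparison described here sets prostate cancer cells kept in enzalutamide for 144 h against cells given the solvent DMSO, by RNA sequencing. It rests on 6 of the 18 libraries of the study, 3 per group, and on the 16169 of 60623 annotated genes that reached at least 1 TPM (the share of a library's transcripts after correction for transcript length) in 3 or more of the 18 libraries. The cells were 16D, an established castration-resistant prostate cancer line, derived from LNCaP, that grows without added androgen and carries a wild-type genotype in the labels. All groups were grown in RPMI with serum. The treated group received enzalutamide at 10 µM for 144 h, and other groups received the same dose for 24, 48 or 96 h or were long-term treated. There was a single DMSO group with no stated harvest time, so that time in culture and drug exposure cannot be told apart. The labels do not say that the 3 libraries of a group came from separate cultures, so the p-values reflect only how far these libraries vary, which may be technical. At the edge of the expression filter, MAGEC2 entered with exactly 1 TPM in the last of the 3 libraries it needed, and PAK3 stayed out with 0.99 TPM. Treated libraries counted toward the filter, so genes under 1 TPM in DMSO, such as HLA-DRA, LRATD1 and SPRY4 below, entered through them alone. Such genes had little room to be called lower against DMSO.

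Enzalutamide binds the androgen receptor in the pocket for its hormone and blocks its entry into the nucleus and its binding to DNA. The receptor is a steroid-activated transcription factor. In luminal prostate cells it drives secretory genes such as KLK3, which encodes prostate-specific antigen, together with genes of lipid synthesis and growth. It also holds down another set of genes, among them enzymes that inactivate androgens.

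The libraries of each group resembled each other closely, with correlations of log2(TPM + 1) of 0.983 to 0.987 among the 144 h libraries and of 0.989 to 0.990 among the DMSO libraries. Transcripts of the mitochondrial genome held 17.7 to 20.6% of TPM in DMSO and 18.3 to 22.5% at 144 h. The epithelial identity of the line showed in EPCAM, with a mean of 174 TPM in DMSO and of 179 TPM after treatment, and in KRT8 and KRT18. Of 13 leukocyte markers none reached the filter, and the highest value was 0.83 TPM. Among 10 fibroblast markers COL1A2, PDGFRA and FAP were listed at 0, and the summed level was 18.2 to 20.7 TPM in DMSO and 25.2 to 41.6 TPM at 144 h; only COL1A1 and ACTA2 passed the filter. Of 7 endothelial markers only VWF passed the filter.

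After 144 h the cells had lost most of their androgen-driven transcripts, with a smaller share of transcripts for ribosome assembly, DNA replication and mitosis and a larger share for lysosomal proteins, extracellular matrix and axon guidance. A gene was called changed when its adjusted p in the limma test on log2(TPM + 1) was under 0.05, and 6941 genes, 42.9% of those tested, met this at 144 h against DMSO. Of these 4294 were higher, 26.6% of the genes tested, and 2647 were lower, 16.4%. TPM are shares, and this balance depended on scaling. After median-of-ratios scaling 3745 genes were higher and 3961 lower, so that the higher share of calls went from 61.9% to 48.6%. After rescaling without mitochondrially encoded genes that share was 62.4%. The cause of the shift was not tested. Many of the calls were small. In 3389 of them the log2 fold change was under 0.5 in size, whereas 622 genes were higher and 276 lower by at least 1, and 81 higher and 59 lower by at least 2. At an unadjusted p under 0.05 in the limma test, 8125 of the 16169 genes differed in either direction. Since bulk RNA was measured, fewer cells with a transcript and less of it per cell cannot be told apart.

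The calls fell unevenly over abundance and gene type. Genes with a mean over 100 TPM were called lower in 563 and higher in 342 of 1656 cases, whereas those between 1 and 5 TPM were called higher in 1215 and lower in 350 of 4148. The genes called lower held 26.5% of TPM in DMSO and 19.5% at 144 h, and those called higher went from 16.4% to 23.6%. Among 691 long intergenic RNAs 209 were higher and 48 lower. Among 1062 antisense genes 252 were higher and 85 lower, with the caveat that the use of strand in counting is not given in the sources used here.

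**Figure D1:**
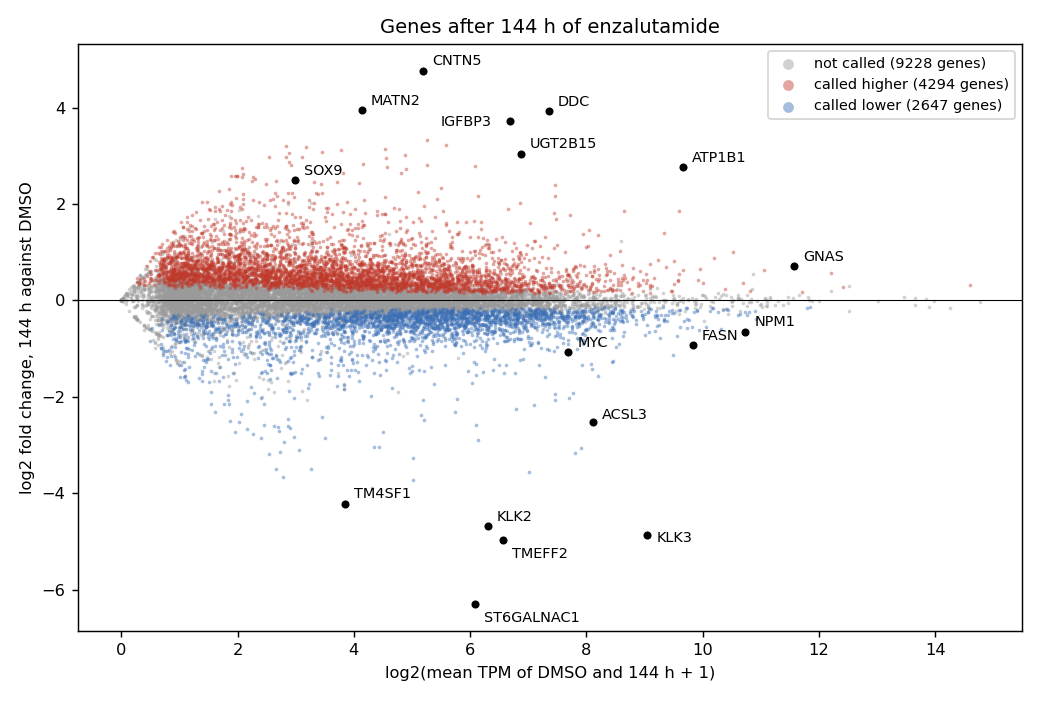
Each point is 1 of the 16169 genes tested, with the log2 of its mean TPM over the DMSO and 144 h libraries plus 1 on the horizontal axis and its log2 fold change at 144 h against DMSO on the vertical axis. Red points are the 4294 genes called higher, blue points the 2647 called lower and grey points the rest; KLK3 and ST6GALNAC1 lie far below the body of the genes and CNTN5 far above it.

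The kallikreins KLK3 and KLK2 lie side by side on chromosome 19 and encode secreted serine proteases of the prostate. Their promoter windows are printed because they hold the best known androgen response element of the prostate. Both genes were also among the 5 named genes with the largest decreases on the log2(TPM + 1) scale. The windows run from 250 bases before to 50 bases after the transcription start in RefSeq (GRCh38.p14), KLK3 at chr19:50854665-50854964, plus strand, and KLK2 at chr19:50873189-50873488, plus strand. Capitals mark the 15 bases that match an androgen response element (AGAACA, any 3 letters, then TGTTCT) at 10 of its 12 fixed letters in KLK3 and at 9 in KLK2.
KLK3: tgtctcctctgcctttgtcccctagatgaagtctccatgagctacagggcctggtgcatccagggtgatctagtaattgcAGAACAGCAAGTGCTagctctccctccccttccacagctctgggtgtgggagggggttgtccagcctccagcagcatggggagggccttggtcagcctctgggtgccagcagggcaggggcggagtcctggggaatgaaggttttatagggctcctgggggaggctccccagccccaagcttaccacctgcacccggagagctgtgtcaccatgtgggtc
KLK2: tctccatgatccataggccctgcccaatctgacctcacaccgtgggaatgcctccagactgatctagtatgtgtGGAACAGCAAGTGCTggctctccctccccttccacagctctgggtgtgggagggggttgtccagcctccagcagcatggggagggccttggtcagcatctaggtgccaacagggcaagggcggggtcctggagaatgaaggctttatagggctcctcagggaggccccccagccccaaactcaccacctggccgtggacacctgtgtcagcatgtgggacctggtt
The element began 170 bases upstream of the start in KLK3 and 176 bases upstream in KLK2. Counted from the first base of the element, KLK3 departed from the consensus by T10A and T13G, and KLK2 carried A1G besides. The windows were identical at 245 aligned positions, with 46 mismatches and 18 gapped positions, or 84.2% of the aligned positions. A match at 10 or more letters on either strand occurred in 2 of the 50 windows of the androgen-induced genes described next. It occurred in 91 of all 15038 windows, or 0.605%. Over all genes called lower it lay in 0.625% of windows, and over those called higher in 0.652%. Such matches describe letters only.

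KLK3 stood at 1038, 1037 and 989 TPM in the DMSO libraries and 34.3, 36.1 and 32.2 TPM in the 144 h libraries. The groups were far apart and the spread within each was small, as the libraries of the groups did not overlap (50.1% of all genes showed no overlap, 30.5% higher and 19.6% lower), giving a level 29.8 times lower at 144 h (log2 fold change -4.86 ± 0.06, adjusted p = 7.88e-18). KLK2 stood at 158, 149 and 147 TPM in the DMSO libraries and 6.07, 4.08 and 4.81 TPM in the 144 h libraries, again with no overlap (log2 fold change -4.68 ± 0.09, adjusted p = 2.09e-15). Because the coding sequences of the 2 kallikreins are similar, the split of short reads between them is uncertain.

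TMPRSS2, the membrane protease whose promoter is often fused to ERG in prostate cancer, stood at 104, 123.05 and 98.98 TPM in the DMSO libraries and 42.5, 32.2 and 40.3 TPM in the 144 h libraries. Every treated library lay below every DMSO library (log2 fold change -1.48 ± 0.12, adjusted p = 5.84e-08). FKBP5, a co-chaperone of steroid receptors, stood at 85.7, 95.9 and 79.5 TPM in the DMSO libraries and 21.1, 18.2 and 21.6 TPM in the 144 h libraries, with a lower level in every treated library (log2 fold change -2.05 ± 0.10, adjusted p = 1.79e-10).

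Of 44 androgen-induced genes 41 were tested; 32 of them were lower and 2 higher, with a median log2 fold change of -1.45 beside 0.07 over all genes. Their summed level was 4696 to 5192 TPM in the DMSO libraries and 1344 to 1524 TPM in the 144 h libraries. SLC45A3, the transporter also known as prostein, went from 238 ± 1.07 to 19.2 ± 1.03 TPM (means ± SD, n = 3 in each group, here and below; log2 fold change -3.56 ± 0.07 ± SE, as throughout). KLK4, a further protease of the kallikrein cluster, went from 279 ± 9.82 to 71.7 ± 0.703 TPM (-1.95 ± 0.05). The 2 members that rose were ACPP and STEAP2. ACPP, the prostatic acid phosphatase, went from 8 ± 1.43 to 25.6 ± 2 TPM (1.57 ± 0.12). STEAP2, a metalloreductase, went from 84.2 ± 7.58 to 136 ± 16.6 TPM (0.68 ± 0.10).

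Of 12 androgen-repressed genes tested 8 were higher and 3 lower, with a median of 1.68. UGT2B15 and UGT2B17, which conjugate androgens to glucuronic acid for removal, were among the members that rose. UGT2B15 stood at 24.6, 24.9 and 23.7 TPM in the DMSO libraries and 209, 195 and 221 TPM in the 144 h libraries, and every treated library lay far above every DMSO library (log2 fold change 3.04 ± 0.09, adjusted p = 3.23e-13). UGT2B17 stood at 24.6, 24.1 and 24.9 TPM in the DMSO libraries and 111, 107 and 122.7 TPM in the 144 h libraries (log2 fold change 2.17 ± 0.08, adjusted p = 5.94e-12). The 2 enzymes are near-identical in sequence, so their shares of reads are uncertain, although both moved the same way. TMEFF2, a transmembrane protein with follistatin-like domains, moved against the name of its list: it stood at 179, 188 and 182 TPM in the DMSO libraries and 4.25, 5.11 and 5.37 TPM in the 144 h libraries, a level 37.2 times lower (log2 fold change -4.96 ± 0.09, adjusted p = 1.10e-15). UGT2B11 and the imprinted zinc finger gene PEG3 were the other members that fell.

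Among 12 genes induced by both the androgen and the glucocorticoid receptor 8 were lower and 1 higher, with a median of -0.70. ZBTB16, a zinc finger repressor, went from 21.6 ± 0.792 to 6.70 ± 0.846 TPM (-1.56 ± 0.10) and MT2A, a metal-binding protein, from 488 ± 23.95 to 202 ± 12.6 TPM (-1.27 ± 0.06).

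Partners of the receptor moved both ways: of 23 receptors, pioneer factors, coactivators and chaperones tested, 9 were higher and 5 lower with a median of 0.06, and 8 and 8 after median-of-ratios scaling; the counts were 6 and 3 without the first 144 h library, 10 and 2 without the second, 8 and 2 without the first DMSO library and 7 and 3 without the third. GATA2, a zinc finger factor that opens chromatin for the receptor, went from 159.8 ± 8.07 to 348 ± 30.5 TPM (1.12 ± 0.08). HOXB13, a prostate homeobox factor, went from 168 ± 6.30 to 275 ± 17.01 TPM (0.71 ± 0.07), and the coactivator NCOA3 from 3.62 ± 0.472 to 10.6 ± 1.11 TPM (1.32 ± 0.11). FKBP4, an HSP90 co-chaperone of the receptor, fell from 271 ± 30.9 to 196 ± 10.7 TPM (-0.47 ± 0.10).

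**Figure D2:**
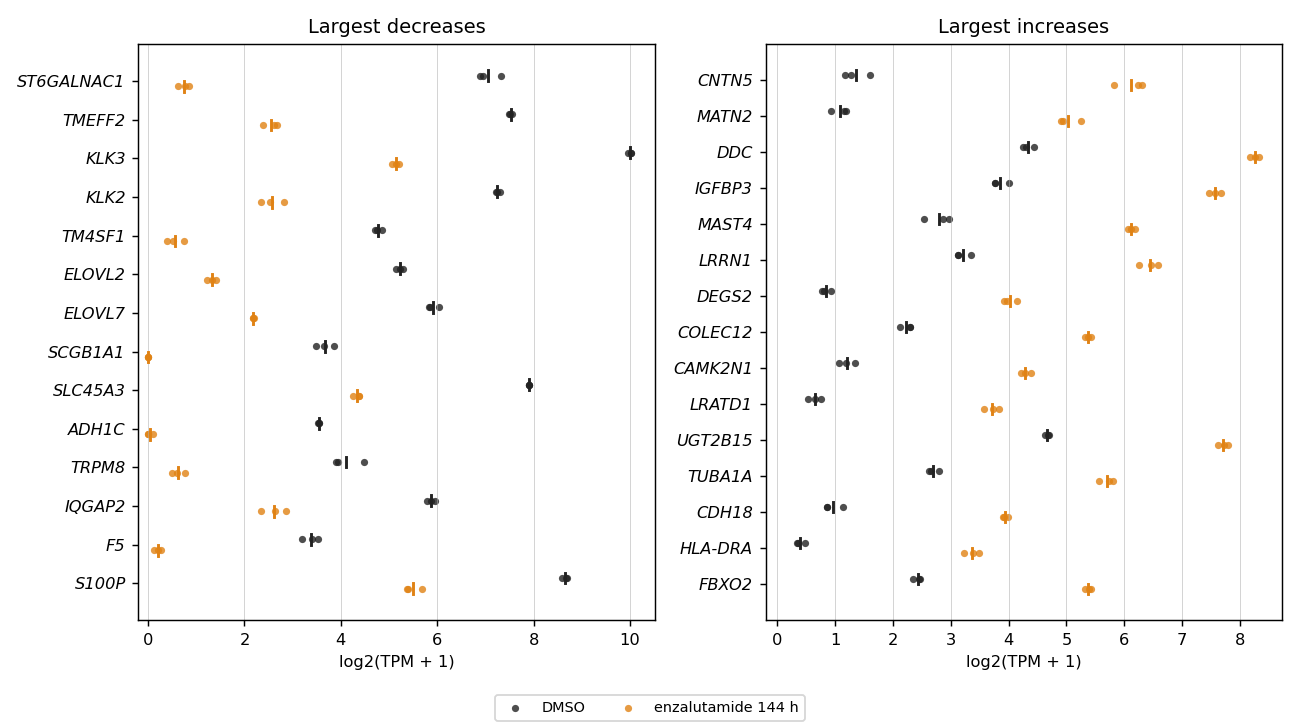
14 of the 15 genes with the largest decreases (left) and the 15 with the largest increases (right) at 144 h against DMSO, each library as a point on a log2(TPM + 1) axis, DMSO in black and 144 h in orange, with a bar at the mean of the 3 libraries. In all 29 genes the libraries of the 2 groups do not overlap, which the rule for naming them required; SCGB1A1 lies at 0 in the 144 h libraries.

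Among the named genes the largest decrease on the log2(TPM + 1) scale was in ST6GALNAC1, a sialyltransferase that makes the sialyl-Tn antigen. It stood at 122, 158 and 117 TPM in the DMSO libraries and 0.81, 0.53 and 0.71 TPM in the 144 h libraries, a level 194 times lower (log2 fold change -6.30 ± 0.15, adjusted p = 2.28e-14). TM4SF1, a surface protein of the tetraspanin-like family, stood at 24.97, 26.03 and 27.9 TPM in the DMSO libraries and 0.31, 0.43 and 0.68 TPM in the 144 h libraries (log2 fold change -4.22 ± 0.12, adjusted p = 2.30e-13). S100P, a calcium-binding protein, was much more abundant, with 407, 411 and 384 TPM in the DMSO libraries and 41.1, 40.7 and 50.7 TPM in the 144 h libraries, and it too was separated without overlap (log2 fold change -3.16 ± 0.09, adjusted p = 3.23e-13). SCGB1A1, a secretoglobin, had 11.6, 13.6 and 10.2 TPM in the DMSO libraries and was listed at 0 in all 3 of the 144 h libraries, so no fold is given. The alcohol dehydrogenase ADH1C went from 10.5 to 10.7 TPM in DMSO to at most 0.07 TPM. The cold-gated channel TRPM8 and coagulation factor gene F5 went from 16.6 to 0.547 TPM and from 9.43 to 0.15 TPM, and the scaffold protein gene IQGAP2 from 57.5 to 5.17 TPM.

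Genes of lipid synthesis were mostly lower. Of 24 fatty acid synthesis genes tested 13 were lower and 5 higher, with a median of -0.24. ELOVL2, which lengthens polyunsaturated fatty acids, stood at 36.4, 38.1 and 34.5 TPM in the DMSO libraries and 1.67, 1.51 and 1.35 TPM in the 144 h libraries (log2 fold change -3.90 ± 0.10, adjusted p = 4.16e-14). ELOVL7, an elongase of very long saturated chains, stood at 56.1, 64.7 and 56.4 TPM in the DMSO libraries and 3.54, 3.59 and 3.50 TPM in the 144 h libraries (log2 fold change -3.72 ± 0.12, adjusted p = 4.96e-13), so that neither gene overlapped between groups. ACSL3, which couples fatty acids to coenzyme A, was abundant in DMSO and went from 472 ± 20.2 to 81.4 ± 4.15 TPM (-2.52 ± 0.06). ELOVL5 went from 335 ± 29.4 to 81.1 ± 8.20 TPM (-2.03 ± 0.12). FASN, the fatty acid synthase itself, went from 1186 ± 7.61 to 627 ± 80.4 TPM (-0.93 ± 0.07).

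The 5 members that rose included SCD5 and HACD1. SCD5, a stearoyl-CoA desaturase, went from 2.69 ± 0.29 to 16.1 ± 1.59 TPM (2.22 ± 0.11). HACD1, a dehydratase of the elongation cycle, went from 1.17 ± 0.359 to 5.71 ± 0.442 TPM (1.64 ± 0.13). Of 24 cholesterol synthesis genes 15 were lower and 2 higher, with a median of -0.35. TM7SF2, a sterol reductase of the pathway, rose from 164 ± 4.75 to 423 ± 15.7 TPM (1.36 ± 0.06). DBI, which binds acyl-CoA esters, was among the 5 largest losses in TPM, from 987 ± 25.7 to 448 ± 35.9 TPM (-1.14 ± 0.06). The motif TCACNCCAC of the sterol factor SREBP lay in 1 of 23 windows of the cholesterol genes and in 1.06% of all windows.

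MYC, a growth-promoting transcription factor of the helix-loop-helix class, stood at 265, 312 and 255 TPM in the DMSO libraries and 167, 113 and 119 TPM in the 144 h libraries. Every treated library was below every DMSO library, with the first treated library the highest of its group (log2 fold change -1.07 ± 0.13, adjusted p = 4.97e-06). Its antagonists MXI1 and MXD4 rose, with log2 fold changes of 0.62 ± 0.12 and 0.46 ± 0.11. Of 12 tested genes of the MYC network 3 were higher and 2 lower, with a median of -0.02. After median-of-ratios scaling 3 were higher and 3 lower. The counts before that scaling lay near the shares of all genes, 26.6% higher and 16.4% lower. Genes of nucleolar ribosome assembly fell together: 40 of 47 were lower and 0 higher in the limma test, with 42 lower and 0 higher at an unadjusted p under 0.05, and their median was -0.49. After median-of-ratios scaling 45 were lower. LYAR, a nucleolar growth regulator, stood at 59.6, 62.1 and 62.2 TPM in the DMSO libraries and 29.7, 31.2 and 33.8 TPM in the 144 h libraries (log2 fold change -0.94 ± 0.06, adjusted p = 1.44e-09). NOP56, a core protein of box C/D particles, went from 489.6 ± 11.1 to 262 ± 14.4 TPM (-0.90 ± 0.06), and the nucleolar phosphoprotein NPM1, the second largest loss in TPM after KLK3, from 2078 ± 38.2 to 1325 ± 32.5 TPM (-0.65 ± 0.07). NCL, which encodes nucleolin, went from 1528 ± 44.4 to 1011 ± 55.3 TPM (-0.60 ± 0.06).

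The palindrome CACGTG, which MYC and related factors bind, lay in 22 of 53 promoter windows of these genes (42 of 47 genes matched) and in 1425 of all 15038 windows, or 9.48%. Over all genes called lower it lay in 11.8% of windows, and over those called higher in 7.95%. The window of LYAR (chr4:4289972-4290271, minus strand, GRCh38.p14, RefSeq) is printed as an example, with the palindrome in capitals 64 bases upstream of the start.
LYAR: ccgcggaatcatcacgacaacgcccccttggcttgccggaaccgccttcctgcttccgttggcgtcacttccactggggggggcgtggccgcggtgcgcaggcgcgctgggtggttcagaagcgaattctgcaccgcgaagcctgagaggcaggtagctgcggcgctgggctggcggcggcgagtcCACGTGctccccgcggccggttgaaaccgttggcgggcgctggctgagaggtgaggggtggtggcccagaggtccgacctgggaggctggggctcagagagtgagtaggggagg
No binding was measured, and MYC itself and its targets were not told apart from other factors that read these letters.

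SRM, which makes spermidine and holds the same palindrome, fell from 494 ± 20.2 to 297 ± 10.6 TPM (-0.73 ± 0.05). Around it 6 of 14 polyamine genes were lower and 3 higher, or 7 and 3 after median-of-ratios scaling. AMD1, which makes the aminopropyl donor, went from 159 ± 11.9 to 95.2 ± 12.3 TPM. The diamine acetyltransferase family moved both ways. SAT2 rose from 120.3 ± 4.43 to 193 ± 11.3 TPM, and SAT1 fell from 85.6 ± 5.19 to 59.8 ± 1.54 TPM (-0.51 ± 0.06).

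DNA replication genes fell together in modest steps: 44 of 46 were lower and 0 higher (45 and 0 at an unadjusted p under 0.05), with a median of -0.53, and 46 were lower after median-of-ratios scaling. CDC6, which loads the replicative helicase, stood at 94.1, 108 and 87.6 TPM in the DMSO libraries and 52.99, 43.6 and 48.8 TPM in the 144 h libraries. The groups did not overlap, and the level was 1.99 times lower at 144 h (log2 fold change -0.98 ± 0.09, adjusted p = 3.19e-07). CDC45, a subunit of that helicase, went from 42.3 ± 3.83 to 24.2 ± 0.223 TPM (-0.78 ± 0.07). RFC4, a clamp loader subunit, went from 103 ± 1.40 to 64.03 ± 2.59 TPM (-0.68 ± 0.05). TYMS, which makes thymidylate, went from 129 ± 2.27 to 81.9 ± 2.14 TPM (-0.65 ± 0.06).

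Letters bound by E2F factors, TTTCCCGC or TTTGGCGC on either strand, lay in 19 of 49 windows of the replication genes (39 of 46 genes matched) and in 2 of 47 windows of the mitosis genes, beside 516 of all 15038 windows, or 3.43%. The CDC6 window (chr17:40287629-40287928, plus strand, GRCh38.p14, RefSeq) is printed with its match in capitals, which begins 7 bases downstream of the start.
CDC6: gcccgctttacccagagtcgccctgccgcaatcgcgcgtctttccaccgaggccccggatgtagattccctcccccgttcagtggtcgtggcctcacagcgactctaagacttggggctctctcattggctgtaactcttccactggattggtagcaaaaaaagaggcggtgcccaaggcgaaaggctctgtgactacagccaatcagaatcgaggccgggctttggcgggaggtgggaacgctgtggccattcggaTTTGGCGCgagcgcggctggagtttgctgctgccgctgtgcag
Genes of G2 and mitosis also fell: 36 of 45 were lower and 0 higher (40 and 0 at an unadjusted p under 0.05), with a median of -0.38 and 30 lower in the leave-one-out fit that called fewest. AURKB, the kinase of the chromosomal passenger complex, stood at 104, 104 and 96.4 TPM in the DMSO libraries and 69.9, 71.9 and 64.8 TPM in the 144 h libraries (log2 fold change -0.55 ± 0.08, adjusted p = 2.41e-05). HMMR, a spindle protein, went from 65.7 ± 6.47 to 37.3 ± 2.90 TPM (-0.80 ± 0.11). KIF20A, a cytokinesis motor, went from 64.98 ± 1.76 to 50.7 ± 0.347 TPM (-0.35 ± 0.05).

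MKI67, the proliferation antigen, stood at 32.5, 39.6 and 31.1 TPM in the DMSO libraries and 27.6, 19.7 and 31.6 TPM in the 144 h libraries, and the groups overlapped. Its call (log2 fold change -0.39 ± 0.13, adjusted p = 0.0201) ended without the second DMSO library (adjusted p = 0.103) or the second 144 h library (adjusted p = 0.112), and with the spread of the 6 libraries alone (adjusted p = 0.128). CDKN1A, which encodes the inhibitor p21, stood at 49.7, 50.8 and 43.2 TPM in the DMSO libraries and 48.2, 36.2 and 42.8 TPM in the 144 h libraries and was not called (log2 fold change -0.18 ± 0.10, adjusted p = 0.17), but was called lower after median-of-ratios scaling (adjusted p = 0.00491), after quantile normalization (adjusted p = 0.0384) and without the first 144 h library (adjusted p = 0.0478). Of 13 tested cell cycle inhibitors, D-type cyclins and related genes 5 were higher and 3 lower, beside 26.6% and 16.4% of all genes. After median-of-ratios scaling 5 were higher and 4 lower, and 1 to 3 were lower with 1 library left out. The members that fell were CDK4, CCND3 and the inhibitor RBL1. Among the inhibitors that rose, CDKN1C went from 1.94 ± 0.10 to 5 ± 1.13 TPM (1.01 ± 0.12) and CDKN2C from 37.7 ± 1.12 to 53.5 ± 0.843 TPM (0.49 ± 0.09).

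Amino acid supply and translation genes fell as well. Of 29 targets of ATF4, the factor that answers amino acid shortage, 21 were lower and 1 higher, with a median of -0.47; after median-of-ratios scaling 26 were lower. ASNS, the asparagine synthetase, stood at 332, 317 and 309 TPM in the DMSO libraries and 169, 168 and 174 TPM in the 144 h libraries, with no overlap (log2 fold change -0.90 ± 0.05, adjusted p = 3.74e-10). SLC1A5, a glutamine carrier, went from 239 ± 4.61 to 121 ± 4.91 TPM (-0.97 ± 0.05). CTH, which makes cysteine, went from 33.9 ± 1.97 to 14.3 ± 1.22 TPM (-1.19 ± 0.10), and the mitochondrial enzyme PCK2 from 303 ± 4.71 to 198 ± 7.55 TPM (-0.61 ± 0.05). The member that rose was DDIT3, a stress transcription factor, from 20.1 ± 0.102 to 27.8 ± 1.55 TPM (0.45 ± 0.07).

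The composite element of ATF4 with CEBP factors, TGATGNAA, lay in 7 of 38 windows of these genes (23 of 29 genes matched) and in 285 of all 15038 windows, or 1.9%. The ASNS window (chr7:97872359-97872658, minus strand, GRCh38.p14, RefSeq) is printed with the element in capitals 68 bases upstream of the start.
ASNS: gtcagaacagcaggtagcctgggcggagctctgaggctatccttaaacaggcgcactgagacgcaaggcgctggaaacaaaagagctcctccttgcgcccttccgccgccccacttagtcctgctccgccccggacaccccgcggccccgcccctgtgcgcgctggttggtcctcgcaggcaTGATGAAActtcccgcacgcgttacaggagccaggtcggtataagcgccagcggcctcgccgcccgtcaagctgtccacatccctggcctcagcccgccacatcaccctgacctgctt
Of 20 cytosolic tRNA synthetase genes 17 were lower and 0 higher (17 and 0 at an unadjusted p under 0.05), with a median of -0.38. GARS, for glycine, went from 407 ± 15.2 to 266 ± 11.9 TPM (-0.61 ± 0.07). Of 50 mitochondrial ribosome genes 33 were lower and 1 higher, with a median of -0.25. Cytosolic ribosomal protein genes, with 16 of 55 lower, 3 higher and a median of -0.04, lay near the median of all genes; 24 were lower after median-of-ratios scaling, 10 without the third DMSO library and 9 without the second 144 h library.

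Energy metabolism was mixed. HK2, the hexokinase that starts glycolysis in many tumours, stood at 19.97, 20.4 and 17.3 TPM in the DMSO libraries and 7.69, 6.14 and 7.13 TPM in the 144 h libraries (log2 fold change -1.34 ± 0.11, adjusted p = 1.12e-07). Of 24 glycolysis genes 10 were lower and 5 higher, with a median of -0.14. LDHA, which makes lactate, went from 775 ± 74.3 to 449.8 ± 38.4 TPM (-0.78 ± 0.10), whereas ENO2, the neuronal enolase, stood at 14.1, 14.3 and 13.1 TPM in the DMSO libraries and 90.5, 68.9 and 63.9 TPM in the 144 h libraries and rose in every library (log2 fold change 2.33 ± 0.11, adjusted p = 7.62e-11). ALDOC, the brain aldolase, rose from 23.1 ± 0.549 to 54.7 ± 3.10 TPM (1.20 ± 0.06).

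DNM1L, the mitochondrial fission GTPase, stood at 60.8, 60.3 and 53.5 TPM in the DMSO libraries and 46.6, 44.4 and 52.3 TPM in the 144 h libraries. Its call was marginal (log2 fold change -0.28 ± 0.09, adjusted p = 0.0244) and ended without the first (adjusted p = 0.0855) or second DMSO library (adjusted p = 0.0763), or the first (adjusted p = 0.0688) or second 144 h library (adjusted p = 0.0928), and with no filter on low genes (adjusted p = 0.0513). Among 16 mitochondrial dynamics genes 5 were lower and 1 higher, 9 and 1 after median-of-ratios scaling, and 3 lower without the second DMSO or the third 144 h library; MTFP1, a fission protein, went from 44.9 ± 0.58 to 16.9 ± 1.24 TPM (-1.36 ± 0.08). Of 62 nuclear respiratory chain genes 8 were higher and 7 lower, and 2 and 25 after median-of-ratios scaling, so no direction is given. Of the 13 proteins encoded in mitochondria none was called by limma, with 1 higher at an unadjusted p under 0.05. The mitochondrial ribosomal RNAs MT-RNR2 and MT-RNR1 were the largest gains in TPM, but the call of MT-RNR2 ended after median-of-ratios scaling (adjusted p = 0.238), after quantile normalization (adjusted p = 0.405), with no filter on low genes (adjusted p = 0.104), and when any of 4 libraries was left out, the first or second of DMSO or the second or the third of 144 h (adjusted p = 0.0573 to 0.0715).

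On the log2(TPM + 1) scale CNTN5, a contactin of the neuronal surface, rose most among the named genes. It stood at 1.43, 1.26 and 2.05 TPM in the DMSO libraries and 74.5, 55.6 and 77.9 TPM in the 144 h libraries, a level 43.9 times higher (log2 fold change 4.77 ± 0.15, adjusted p = 4.04e-13). DDC, which makes dopamine and serotonin from their amino acid precursors and binds the androgen receptor as a coactivator, stood at 18.8, 18.1 and 20.7 TPM in the DMSO libraries and 307, 288 and 321 TPM in the 144 h libraries. The treated libraries were close together and well apart from DMSO (log2 fold change 3.92 ± 0.10, adjusted p = 4.16e-14). IGFBP3, which binds insulin-like growth factors, stood at 12.6, 15.1 and 12.6 TPM in the DMSO libraries and 189, 176 and 203 TPM in the 144 h libraries (log2 fold change 3.72 ± 0.07, adjusted p = 1.10e-15). It was among 4 of 10 tested genes of that axis that rose (3 after median-of-ratios scaling), while IGF1R, the receptor, fell from 13.4 ± 1.69 to 3.30 ± 0.369 TPM (-1.74 ± 0.13).

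Further large increases lay in genes at low levels in DMSO. MATN2, a matrix filament protein, stood at 0.91, 1.29 and 1.22 TPM in the DMSO libraries and 29.5, 29.1 and 37.1 TPM in the 144 h libraries (log2 fold change 3.94 ± 0.13, adjusted p = 6.16e-13). LRRN1, a neuronal leucine-rich repeat protein, went from 8.25 ± 0.866 to 85.9 ± 9.74 TPM (3.23 ± 0.10). MAST4, a microtubule-associated kinase, went from 6 ± 1.04 to 68.6 ± 2.60 TPM (3.32 ± 0.11). COLEC12, a scavenger receptor, went from 3.71 ± 0.315 to 40.4 ± 1.501 TPM (3.14 ± 0.08) and CAMK2N1, an inhibitor of calmodulin-dependent kinase II, from 1.31 ± 0.217 to 18.6 ± 1.19 TPM (3.09 ± 0.10). DEGS2, an enzyme of ceramide synthesis, FBXO2, which targets glycoproteins for degradation, LRATD1, the cadherin CDH18 and the alpha-tubulin TUBA1A rose by 3.18, 2.95, 3.06, 2.98 and 3.01 on the log2 scale; TUBA1A shares much of its sequence with other tubulin genes. HLA-DRA, a chain of HLA class II, stood at 0.40, 0.28 and 0.27 TPM in the DMSO libraries and 9.40, 8.42 and 10.2 TPM in the 144 h libraries (log2 fold change 2.97 ± 0.12, adjusted p = 1.05e-11), a low level even after treatment, with leukocyte markers near 0 as given above.

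Some gains were large in absolute terms. ATP1B1, a subunit of the sodium-potassium pump, stood at 211, 211 and 201 TPM in the DMSO libraries and 1455, 1384 and 1398 TPM in the 144 h libraries (log2 fold change 2.76 ± 0.10, adjusted p = 3.32e-12). GNAS, the stimulatory G protein alpha subunit, went from 2303 ± 106 to 3763 ± 337 TPM (0.71 ± 0.05). The gain of the ribosomal protein gene RPLP1 (0.29 ± 0.07) was lost after quantile normalization.

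Neural genes moved in both directions. Of 43 genes of neurite and synapse adhesion only 20 were tested, 8 higher and 7 lower, with a median of 0.09. CBLN2, a secreted synapse organiser, went from 16.1 ± 1.65 to 118 ± 6.78 TPM (2.80 ± 0.09), while the neurexin NRXN3 fell from 13.5 ± 1.02 to 3.13 ± 0.295 TPM (-1.81 ± 0.12). Of 33 neuroendocrine markers 9 were tested; 5 rose and 0 fell (5 and 0 at an unadjusted p under 0.05; 5 and 2 after quantile normalization). They were DDC and ENO2, given above, the synaptotagmin SYT4, from 2.39 ± 0.915 to 6.88 ± 0.923 TPM, the receptor kinase RET, from 0.763 ± 0.169 to 2.60 ± 0.277 TPM, and the synaptic vesicle protein SYP, with a log2 fold change of 0.50, which was named after its value was seen. At its level in DMSO, RET passed the filter through treated libraries and had little room to fall. For such members the direction was in part set by the filter.

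Of 37 axon guidance genes 24 were higher and 2 lower, with a median of 0.37. SEMA6A, a transmembrane semaphorin, went from 7.55 ± 1.17 to 36.6 ± 3.18 TPM (2.14 ± 0.10). The ephrins EFNA3 and EFNB3 went from 18.7 ± 1.41 to 63.8 ± 1.21 TPM (1.72 ± 0.07) and from 0.70 ± 0.184 to 5.54 ± 0.811 TPM (1.94 ± 0.12). The receptors UNC5A and EPHB6 were the members that fell.

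Extracellular matrix and integrin genes rose in 19 of 32 cases and fell in 3, with a median of 0.51. COL6A1, a collagen chain, stood at 10.4, 10.02 and 12.02 TPM in the DMSO libraries and 60.02, 65.5 and 43 TPM in the 144 h libraries (log2 fold change 2.26 ± 0.14, adjusted p = 2.96e-09). SDC4, a heparan sulfate proteoglycan, went from 5.96 ± 0.915 to 28.2 ± 1.81 TPM (2.07 ± 0.11). LAMB2, a laminin chain, went from 161 ± 7.36 to 357 ± 35.4 TPM (1.14 ± 0.06). LAMA1 fell from 2.86 ± 0.45 to 0.67 ± 0.30 TPM (-1.22 ± 0.15). The fibroblast marker COL1A1 moved in the same direction, from 14.5 ± 0.93 to 29.4 ± 8.40 TPM, while ACTA2 went from 4.42 ± 0.526 to 2.53 ± 0.243 TPM and COL1A2, PDGFRA and FAP were listed at 0 in every library of both groups.

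Lysosome and autophagy genes rose in 25 of 37 cases and fell in 1, with a median of 0.36, and in 24 with 4 falling after median-of-ratios scaling. NPC2, a cholesterol carrier of the lysosome, went from 212 ± 11.3 to 349 ± 18.5 TPM (0.71 ± 0.05). MAP1LC3B, a coat protein of autophagosomes, went from 14.8 ± 0.955 to 29.6 ± 0.695 TPM (0.95 ± 0.07). BNIP3L, a receptor for mitochondrial autophagy, went from 57.1 ± 1.68 to 107 ± 8.18 TPM (0.89 ± 0.07). NPC1, the membrane partner of NPC2, was the member that fell, from 31.9 ± 2.97 to 19.3 ± 0.722 TPM (-0.69 ± 0.09).

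Of 13 HLA class I presentation genes tested 10 rose and 1 fell, with a median of 0.65 (9 and 3 after median-of-ratios scaling). Their summed level was 876 to 1022 TPM in the DMSO libraries and 885 to 1020 TPM in the 144 h libraries, so the sum over the list overlapped between the groups. HLA-B stood at 29.99, 22.7 and 25.4 TPM in the DMSO libraries and 78.4, 72.5 and 64.6 TPM in the 144 h libraries (log2 fold change 1.43 ± 0.11, adjusted p = 5.04e-08). HLA-C went from 71.8 ± 1.65 to 122 ± 9.59 TPM, and the division of reads among these related genes is uncertain. TAPBP, which loads peptides, rose from 14.3 ± 1.59 to 33.1 ± 3.73 TPM (1.16 ± 0.09). TAP2, a chain of the peptide transporter, fell from 56.9 ± 1.70 to 33.8 ± 2.41 TPM (-0.73 ± 0.09). Of 35 interferon response genes 23 were tested; 11 rose and 1 fell (3 after median-of-ratios scaling), with a median of 0.42. IRF1, an interferon-induced transcription factor, went from 0.783 ± 0.24 to 5.62 ± 0.541 TPM (1.90 ± 0.16) and IFI6 from 16.6 ± 2.30 to 34.5 ± 3.07 TPM (1.01 ± 0.10). Leukocyte markers were near 0 in these libraries, as given above.

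Signalling and lineage genes gave a mixed picture. SOX9, a factor of developing prostate epithelium, stood at 1.26, 1.48 and 1.38 TPM in the DMSO libraries and 13.5, 12.4 and 11.4 TPM in the 144 h libraries (log2 fold change 2.50 ± 0.12, adjusted p = 1.16e-10). WNT5A, a secreted ligand of the WNT pathway, went from 1.53 ± 0.223 to 8.91 ± 1.52 TPM (1.96 ± 0.13). LEF1, a nuclear effector of that pathway, went from 14.03 ± 1.70 to 33.3 ± 2.46 TPM (1.20 ± 0.08). They belonged with SOX9 to the 13 of 26 WNT and SOX genes that rose, against 4 that fell (2 without the first or second DMSO or the second 144 h library) and a median of 0.37. NOTCH3 rose from 3.04 ± 0.364 to 21.2 ± 2.09 TPM (2.46 ± 0.14) among 17 Notch pathway genes with 4 higher and 2 lower (5 lower after quantile normalization). These Notch counts lay near the shares of all genes, 26.6% higher and 16.4% lower. Of 28 BMP and TGF-beta genes 12 were higher and 4 lower, with a median of 0.28. The inhibitors of differentiation ID2 and ID1 went from 136 ± 3.55 to 355 ± 14.98 TPM (1.38 ± 0.05) and from 56.9 ± 0.932 to 134 ± 19.1 TPM (1.22 ± 0.09). PMEPA1, which dampens TGF-beta signalling and is also induced by androgen, fell from 115 ± 7.71 to 19.1 ± 5.38 TPM (-2.57 ± 0.17).

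Luminal markers did not move as a block: of 18, 7 were higher and 6 lower. KRT8 rose from 143 ± 2.97 to 183 ± 9.60 TPM (0.36 ± 0.05). SPDEF, an ETS factor of secretory epithelium, fell from 161 ± 1.38 to 68.1 ± 6.71 TPM (-1.23 ± 0.08). Only 6 of 16 basal markers passed the filter, and KRT5, KRT17 and TP63 stayed at or near 0; ITGB4, an integrin chain, rose from 2.56 ± 0.195 to 14.2 ± 1.86 TPM (2.09 ± 0.15). Of 17 mesenchymal genes 8 were tested, 3 higher and 2 lower: FN1, fibronectin, went from 42.2 ± 2.81 to 105 ± 3.60 TPM (1.29 ± 0.08), whereas the repressor SNAI2 fell from 4.55 ± 0.195 to 0.253 ± 0.129 TPM (-2.15 ± 0.11). Of 15 surface proteins used or tried as drug targets 8 rose and 3 fell (6 after median-of-ratios scaling). ERBB2, the HER2 receptor, went from 19.2 ± 0.317 to 37.8 ± 2.46 TPM (0.94 ± 0.07). NECTIN4, an adhesion protein, went from 1.64 ± 0.183 to 5.01 ± 0.50 TPM (1.19 ± 0.10). PSCA, the prostate stem cell antigen, fell from 18.04 ± 1.02 to 7.22 ± 1.37 TPM (-1.22 ± 0.15).

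Stress and growth response genes completed the lists. Among 24 immediate early genes 10 were lower and 4 higher with a median of -0.01, and 10 and 7 without the third 144 h library: FOS and KLF4, transcription factors, fell with log2 fold changes of -1.47 and -2.02, and SPRY4, a brake on receptor kinase signalling, rose from 0.09 ± 0.07 to 4.28 ± 0.589 TPM (2.27 ± 0.13). Of 31 heat shock genes 14 were lower and 5 higher, which became 22 and 4 after median-of-ratios scaling and 9 and 5 without the second DMSO library. Of 36 proteasome genes 15 were lower and 2 higher, or 26 and 1 after that scaling; PSME1, a proteasome activator, rose from 104 ± 2.62 to 197 ± 17.6 TPM (0.91 ± 0.06). Of 26 unfolded protein response genes 14 were lower and 1 higher, the latter the calcium-binding chaperone CALR, from 1436 ± 22.9 to 1858 ± 100.5 TPM (0.37 ± 0.05). Of 15 NRF2 targets 8 were lower and 1 higher, FTL, the ferritin light chain, from 429.5 ± 8.56 to 771 ± 42.7 TPM (0.84 ± 0.06).

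In several lists the counts moved with scaling or with a single library. A second pair of counts is that after median-of-ratios scaling. Over all genes 26.6% were called higher and 16.4% lower, or 23.2% and 24.5% after that scaling. Before that scaling, p53 targets and genes of the citric acid cycle and fatty acid oxidation lay near the shares of all genes. Splicing factors were lower in 11 and higher in 3 of 34 cases, or 20 and 3, and 12 and 1 without the third DMSO and 10 and 1 without the first 144 h library; p53 targets were higher in 6 and lower in 4 of 22, or 5 and 8. Chromatin and DNA methylation genes were higher in 11 and lower in 8 of 33, or 9 and 11; these counts were 6 and 9, 14 and 5 and 10 and 5 without the first, the second and the third 144 h library, and 12 and 4 without the second DMSO library. Genes of the citric acid cycle and fatty acid oxidation were higher in 12 and lower in 7 of 39, or 12 and 12, and 13 and 4 without the second 144 h library. Glycosylation genes were higher in 7 and lower in 8 of 26, or 6 and 12; UAP1, which makes a sugar donor for glycosylation, fell from 223 ± 12.6 to 49.1 ± 3.39 TPM (-2.16 ± 0.08). Among 14 metallothionein and zinc transport genes 6 were lower and 2 higher: MT1X, a metallothionein, went from 207 ± 12.7 to 81.6 ± 8.51 TPM (-1.33 ± 0.07). SLC30A4, a zinc transporter, rose from 49.7 ± 2.68 to 122 ± 8.40 TPM (1.28 ± 0.10). SESN1, a p53 target that restrains growth signalling, rose from 16.2 ± 0.177 to 52.6 ± 3.90 TPM (1.64 ± 0.08). Of 14 genes of drug and alcohol metabolism 7 were lower and 4 higher, with NNMT, which methylates nicotinamide, lower from 11.9 ± 1.86 to 1.07 ± 0.498 TPM (-2.65 ± 0.19) and GSTM3, a glutathione transferase, higher from 113 ± 1.51 to 209.9 ± 25.02 TPM (0.88 ± 0.08). Of 15 hypoxia targets 6 were higher and 4 lower, or 6 and 6. MXI1, given above, was among those that rose (0.62 ± 0.12), whereas VEGFA, the vascular growth factor, fell from 59.6 ± 5.80 to 41.6 ± 3.41 TPM (-0.51 ± 0.08). Of 32 secretory transport genes 11 were lower and 3 higher, or 4 and 3 without the second 144 h library, 8 and 1 without the first DMSO library and 6 and 3 without the second. Of 11 steroid synthesis genes 2 were lower and 2 higher.

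The 144 h libraries were next compared directly with those of 96 h, which share no control. Here 547 genes, 3.38% of those tested, were called, 356 higher (2.2%) and 191 lower (1.18%), and 12 were higher and 7 lower by at least 1 on the log2 scale. This count rested on the other 12 libraries and on single libraries: with the spread estimated from these 6 libraries alone 22 genes were called, without the first 144 h library 208, without the second 96 h library 237 and without the third 329. The 96 h libraries differed in mitochondrial share, from 15.1% to 24.0%, and with that share in the model 1629 genes were called. After median-of-ratios scaling 1073 were called, 435 higher and 638 lower. At an unadjusted p under 0.05 in the main limma fit, 2886 of the 16169 genes differed in either direction.

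TMEFF2 fell further between the 2 times and stood at 20.5, 15.7 and 15.8 TPM in the 96 h libraries and 4.25, 5.11 and 5.37 TPM in the 144 h libraries (log2 fold change -1.63 ± 0.09, adjusted p = 1.03e-07). S100P stood at 132, 119.9 and 106 TPM in the 96 h libraries and 41.1, 40.7 and 50.7 TPM in the 144 h libraries (log2 fold change -1.41 ± 0.09, adjusted p = 3.73e-07), and KLK3 at 76.1, 70.9 and 68.5 TPM in the 96 h libraries and 34.3, 36.1 and 32.2 TPM in the 144 h libraries (log2 fold change -1.05 ± 0.06, adjusted p = 1.03e-07). In all 3 genes each 144 h library was below each 96 h library, as in 5.05% of all genes. The means of TFF1, a secreted trefoil peptide, were 6.87 TPM in DMSO, 9.15 at 24 h, 18.2 at 48 h, 13.5 at 96 h and 5.39 at 144 h. The long-term treated group had a higher mean than any of these, 29.6 TPM. TFF1 fell from 96 h to 144 h, a step that was called (log2 fold change -1.18 ± 0.11, adjusted p = 1.46e-05). Its level at 144 h against DMSO was called too (log2 fold change -0.30 ± 0.11, adjusted p = 0.0324), but this call ended without the first (adjusted p = 0.0615) or the third DMSO library (adjusted p = 0.156), or the first (adjusted p = 0.109) or second 144 h library (adjusted p = 0.0718), with no filter on low genes (adjusted p = 0.0606) and with the spread of the 6 libraries alone (adjusted p = 0.093).

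Among genes that rose in this interval, TENM2, a teneurin of the neuronal surface, stood at 2.04, 1.88 and 1.91 TPM in the 96 h libraries and 7.06, 4.78 and 7.16 TPM in the 144 h libraries (log2 fold change 1.30 ± 0.14, adjusted p = 7.13e-05). CNTN5 went from 29.5 to 69.4 TPM (log2 fold change 1.19 ± 0.15, adjusted p = 2.85e-04) and SDK2, a neural adhesion protein, from 1.99 to 5.83 TPM (log2 fold change 1.18 ± 0.13, adjusted p = 7.75e-05). IGFBP3 stood at 94.5, 91.3 and 92.8 TPM in the 96 h libraries and 189, 176 and 203 TPM in the 144 h libraries (log2 fold change 1.02 ± 0.07, adjusted p = 3.73e-07), and ADRA2A, an adrenergic receptor, went from 5.23 to 12 TPM (log2 fold change 1.06 ± 0.13, adjusted p = 2.86e-04). UGT2B17 went from 58.7 to 114 TPM (log2 fold change 0.95 ± 0.08, adjusted p = 1.29e-05). TMPRSS2 was not called in this interval, with a log2 fold change of 0.19 ± 0.12.

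Between 96 h and 144 h the G2 and mitosis genes were called with 19 of 45 lower and 0 higher (40 and 0 at an unadjusted p under 0.05) and a median of -0.31 beside 0.06 over all genes. This count was 8 without the second 96 h library, 10 without the first 96 h library or the first 144 h library, 11 without the second 144 h library, and 0 with the spread of the 6 libraries alone. KIF20A fell in this interval with a log2 fold change of -0.46 ± 0.05, a call that ended with the spread of the 6 libraries alone (adjusted p = 0.0749). ATF4 targets followed with 11 of 29 lower and 0 higher (14 and 0 at an unadjusted p under 0.05), a count of 7 without the second 144 h library or the first or second 96 h library; ASNS fell with a log2 fold change of -0.54 ± 0.05. Of the androgen-repressed genes 7 of 12 were higher and 2 lower, with DDC among the former, from 217 to 305 TPM (log2 fold change 0.50 ± 0.10, adjusted p = 0.0128), a call that ended without the first 144 h library (adjusted p = 0.0526) or the second (adjusted p = 0.0571) or the third 96 h library (adjusted p = 0.0561). Axon guidance genes were higher in 7 of 37 cases and lower in 0 (14 and 0 at an unadjusted p under 0.05), with 4 higher without the first 144 h library or the third 96 h library.

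**Figure D3:**
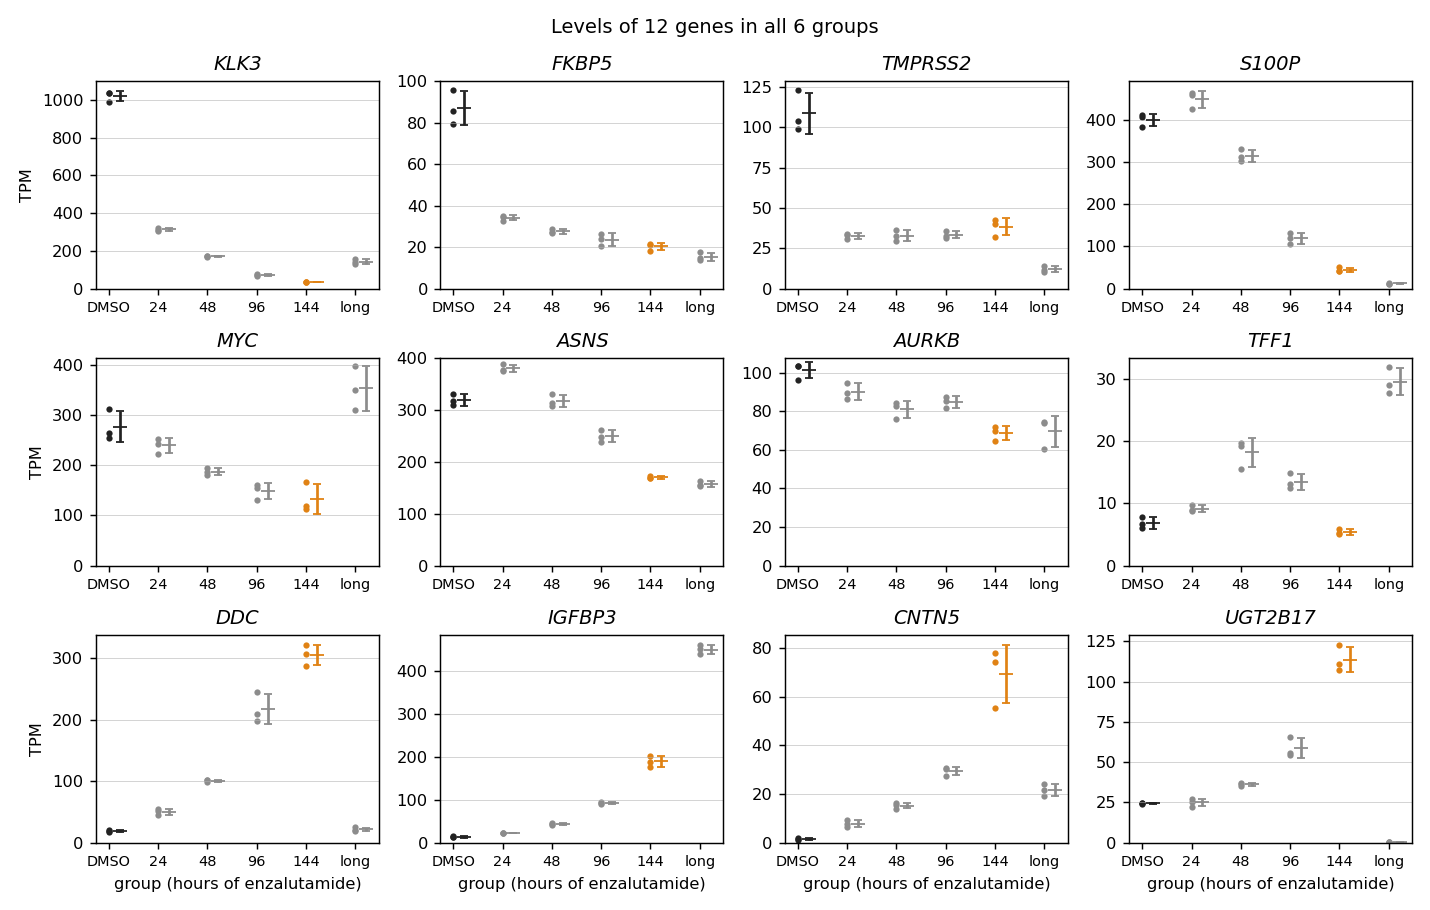
TPM of 12 genes in every library of the 6 groups (points) with the mean and SD of the 3 libraries beside them (bars), DMSO in black, 144 h in orange and the other groups in grey; hours of enzalutamide are on the horizontal axis and long is the long-term treated group. KLK3 declines over the 4 times while TMPRSS2 is low from 24 h, ASNS and S100P lie above DMSO at 24 h and below it at 144 h, and UGT2B17 is lowest in the long-term group.

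Against 24 h, 4802 genes were called at 144 h, 29.7% of those tested, 3001 higher (18.6%) and 1801 lower (11.1%). At an unadjusted p under 0.05 in the limma test, 6438 of the 16169 genes differed in either direction. KLK3 and TMEFF2 were lower, with log2 fold changes of -3.16 ± 0.06 and -3.54 ± 0.09. TMPRSS2 was not called (log2 fold change 0.22 ± 0.12, adjusted p = 0.18), but was called higher without the second 144 h library (adjusted p = 0.047). S100P, at 449 TPM at 24 h, was lower at 144 h, with a log2 fold change of -3.32 ± 0.09. ST6GALNAC1 went from 13 TPM at 24 h to 0.683 TPM (log2 fold change -3.04 ± 0.15, adjusted p = 4.72e-10), and TNFRSF19, a receptor of the tumour necrosis factor family, from 39.4 to 7.12 TPM (log2 fold change -2.31 ± 0.11, adjusted p = 2.99e-10). IGFBP3, CNTN5 and DDC were higher, with log2 fold changes of 2.98 ± 0.07, 2.98 ± 0.15 and 2.59 ± 0.10.

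The growth lists moved most of their members in this interval too. Of ATF4 targets 26 of 29 were lower and 0 higher (26 and 0 at an unadjusted p under 0.05), with a median of -0.68 beside 0.06 over all genes; ASNS had means of 319 TPM in DMSO, 380.2 at 24 h and 170.4 at 144 h (log2 fold change -1.15 ± 0.05, adjusted p = 7.74e-11). Of nucleolar genes 35 of 47 were lower, of replication genes 33 of 46 and of G2 and mitosis genes 38 of 45, with 0 higher in each (0 also at an unadjusted p under 0.05). Matrix and integrin genes were higher in 17 of 32 cases, axon guidance genes in 20 of 37 and lysosome genes in 23 of 37, with 1 lower in each. Of the androgen-induced genes 22 of 41 were lower and 1 higher, with a median of -0.32.

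In the long-term treated group, given beside the others without a test, KLK3 averaged 142 TPM, above its mean of 34.2 TPM at 144 h. DDC averaged 21.5 TPM and UGT2B17 0.227 TPM, below their means of 305 and 114 TPM at 144 h. IGFBP3, at 451 TPM, was above.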

How the data were processed

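Poly(A) RNA of the 18 libraries was sequenced strand-specifically as single reads, per the labels' protocols. The deposited values are TPM per gene and library, made by the authors; the submitters' processing notes name STAR, RSEM, Partek, hg38 and GRCh38, without roles or versions. The TPM of each library sum to the same total (1000000), and sequencing depth is unknown, so counting error cannot be given.

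Genes with at least 1 TPM in 3 or more of the 18 libraries were kept. Their log2(TPM + 1) values were fitted with limma 3.58.1 (R 4.3.3; 6 group means over all 18 libraries, so that the other groups share in the estimate of the spread; moderated two-sided test with a variance trend), with Benjamini-Hochberg adjustment over all 16169 genes in each of 3 contrasts: 144 h against DMSO, against 96 h and against 24 h. Fold changes are therefore on the log2(TPM + 1) scale, which understates the change of low genes. In simulated data for 144 h against DMSO with 16169 genes, the fit recovered 95 of 100 genes given a log2 change of 1. It recovered 57 of 100 given 0.5, with 3 false calls among 155. Only these genes were changed, all with mean levels above about 5 TPM, and the noise was normal and independent between genes. In the data 42.9% of genes were called and many lay at lower levels, so these rates cannot be carried over.

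Named genes were 14 fixed symbols, the genes with the largest changes (15 in each direction at 144 h against DMSO, 10 against 96 h and 8 against 24 h) that were called in the full fit and without any 1 library, did not overlap and averaged at least 5 TPM in the higher group, the 5 largest gains and losses in TPM, and up to 4 called members of each gene list in each direction with the smallest adjusted p; some of these genes are not reported here. The members and the 53 gene lists were chosen with earlier results of these data known, and no list was tested as a set. Chromosomes and strands follow GENCODE release 29, and promoter windows RefSeq (GRCh38.p14). Alternatives were a filter of 5 TPM or none, a pseudocount of 0.1, no variance trend, quantile normalization, median-of-ratios scaling, TPM rescaled after removal of the 37 genes of the mitochondrial genome, the share of those genes as a covariate, a replicate block, the 6 libraries of a contrast alone, and each library left out in turn. The deposited mean columns equal the means of the 3 libraries and were not used in a test.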

Additional observations from a re-analysis of the deposited data

Results flagged for a closer look

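Of 59 genes named for a large change or always given, 36 were called between 144 h and 96 h in the direct limma test (adjusted p under 0.05). Of these, 22 were higher and 14 lower at 144 h. Genes named for the size of this step were chosen by this same test, so their calls were fixed in advance. Each value is a log2 fold change of 144 h against 96 h with 3 libraries a group. With the spread estimated from the 6 libraries alone, 22 of all 16169 genes were called in this interval.

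The decreases were -1.63 in TMEFF2, -1.41 in S100P, -1.18 in TFF1, -1.05 in KLK3, -1.03 in TNFRSF19, -0.71 in CSTA, -0.69 in ELOVL2, -0.69 in FRY, -0.68 in the amino acid carrier SLC7A5, -0.64 in TM4SF1, -0.62 in the protease inhibitor SLPI, -0.61 in the non-coding RNA PCAT1, -0.55 in ELOVL7 and -0.43 in KLK2. The increases were 1.30 in TENM2, 1.19 in CNTN5, 1.18 in SDK2, 1.07 in HLA-DRA, 1.06 in ADRA2A, 1.02 in IGFBP3, 0.96 in AIDA, 0.95 in UGT2B17, 0.93 in the uroplakin UPK2 and 0.88 in DEGS2. Smaller increases were 0.80 in TUBA1A, 0.78 in UGT2B15, 0.76 in MAST4, 0.76 in CDH18, 0.72 in LRATD1, 0.70 in MATN2, 0.68 in LRRN1, 0.68 in CAMK2N1, 0.60 in COLEC12, 0.57 in FBXO2, 0.50 in DDC and 0.48 in ATP1B1.

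Of the 36, 30 were called in every fit that left out 1 library. The other 6 were ATP1B1, DDC, ELOVL7, KLK2, LRATD1 and TM4SF1, whose highest adjusted p in those fits was 0.0526 in TM4SF1 to 0.0682 in ATP1B1. Genes named for the size of this step had to be called in all those fits, so only the remaining genes could fail. Over all 547 genes called in this interval, 157 (28.7%) were called in every such fit.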

How the results depend on the processing

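The number of genes called at 144 h against DMSO stayed within 1.5 times of 6941 under every alternative, from 5512 with a filter of 5 TPM to 8055 with the mitochondrial share in the model, and from 5986 to 6552 with 1 library left out; 4978 genes were called in every leave-one-out fit. Against 24 h it ranged from 3307 with the 6 libraries alone to 6155 with that share, and from 3785 to 4439 with 1 library left out. Against 96 h it did not hold: 1073 after median-of-ratios scaling, 1039 after quantile normalization, 1158 after rescaling without mitochondrially encoded genes, 1629 with that share, 22 with the 6 libraries alone, and 208 to 548 with 1 library left out; the cause was not tested. RPLP1 turned after quantile normalization, to a log2 fold change of -0.007113 against DMSO (adjusted p = 0.977) and of -0.05555 against 24 h (adjusted p = 0.819).

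Libraries share replicate numbers across groups. Deviations of same-numbered libraries from their group means correlated at -0.16 to 0.004 between 144 h and DMSO. Between 144 h and 24 h they correlated at -0.01 to 0.12, and between 144 h and 96 h at -0.12 to 0.07. These values were small, but differently numbered libraries were not compared, so they cannot show whether the numbers mark pairs. With a replicate block 6829, 435 and 4663 genes were called against DMSO, 96 h and 24 h.

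TPM are shares of each library, and without read counts the lowest genes carry an unknown counting error. There was 1 DMSO group of unstated harvest time.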
